A study of Mus musculus with 57 samples.

Results

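Fcrl5, Grap2, Adgrl3, Slc7a2, Abcb1b and Lipg are 6 of the 24941 mouse genes measured. They were chosen by measured values: their RNA levels differed between Cre-positive and Cre-negative macrophages of mice with floxed LXR genes. All 6 were found in the count table by symbol. The values of that comparison chose the genes, so they are given as a description with no test. Tests are given only for comparisons of other cells. In the LXR-floxed cells Fcrl5, Grap2, Abcb1b and Lipg were higher, and Adgrl3 and Slc7a2 lower, in all 3 Cre-positive libraries than in any of the 3 Cre-negative ones. The share of all genes whose libraries part in this way was not counted, so nothing is read from this separation.

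LXR alpha (Nr1h3) and LXR beta (Nr1h2) are nuclear receptors that bind oxidised cholesterol and switch on genes for cholesterol efflux, fatty acid synthesis and lipoprotein handling. Kupffer cells, the macrophages that live in the liver sinusoids, express LXR alpha strongly and use it to hold their identity. Clec4f encodes a lectin that marks Kupffer cells in the mouse. Monocyte-derived cells that settle in the Kupffer cell niche also come to express it.

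The 6 genes belong to different families. Fcrl5 encodes an Fc receptor-like membrane protein best known from B cells. Adgrl3 encodes latrophilin 3, an adhesion G protein-coupled receptor that binds FLRT and teneurin proteins. Grap2 encodes GADS, an adaptor that joins the scaffold SLP-76 (Lcp2) to LAT in T cells and mast cells. Slc7a2 encodes CAT-2, a carrier of arginine and other cationic amino acids. Abcb1b encodes a P-glycoprotein, a pump for drugs and lipids. Lipg encodes endothelial lipase, a secreted phospholipase that acts on high-density lipoprotein.

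Polyadenylated RNA was sequenced in 57 libraries of 16 groups, which fall into 4 sets that were fitted separately. The LXR set held F4/80-high, Tim4-negative macrophages of the Kupffer niche after 20 weeks of NASH diet (non-alcoholic steatohepatitis, fatty liver with inflammation). They came from mice labelled Clec4f-cre pos LXRaLBRb flox (n = 3) or Cre neg LXRaLBRb flox (n = 3), so both groups carried the floxed alleles and only the first the Cre driven by Clec4f. The titles spell the second receptor LXRb. The population set came from C57BL/6J mice and held 2 libraries each of healthy and NASH diet Kupffer cells (F4/80-high, Tim4-positive), Kupffer-niche recruited macrophages, Ly6C-high and Ly6C-low recruited macrophages (both CD11b-high), and blood Ly6C-high monocytes. The titles of the blood monocyte libraries name NASH, and those of the recruited macrophages in this set name no diet. The labels of this set give no number of weeks. The time course held C57BL/6J Kupffer cells at week 0 (control diet, 3 libraries) and, on NASH diet, at weeks 1 and 4 (2 libraries each), 10 and 20 (3 each) and 30 (4). Whole liver came from mice labelled Clec4f-cre DTR pos (n = 12) or DTR neg (n = 10) after 4 weeks of a choline-deficient, high-fat diet (CDAHFD). DTR is a receptor for diphtheria toxin. Ages are not given in the sources used here. In units of 1e6 counts, library totals ran from 2.32 to 5.09 in the LXR set, from 12.4 to 22.7 in the population set, from 10.5 to 26.97 in the time course and from 5.39 to 9.94 in whole liver. Levels are counts per 1e6 counts (CPM) after TMM scaling within a set.

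In mm10, the transcript kept for Fcrl5 (NM_183222) lies on the plus strand of chromosome 3 from 87435782 to 87467524, that of Grap2 (NM_001289442) on the plus strand of chromosome 15 from 80572597 to 80652854, and that of Slc7a2 (NM_007514) on the plus strand of chromosome 8 from 40862367 to 40922070. Adgrl3 (NM_001347367, 81020571 to 81802142) and Abcb1b (NM_011075, 8798147 to 8866314) both lie on the plus strand of chromosome 5. Adgrl3 has 13 transcripts in the table, the other genes 1 or 2. Counts were taken over whole spliced transcripts, and strand use is not given in the sources used here.

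RefSeq promoter windows (GRCm38.p6, the mm10 assembly) of 300 bases, 250 before and 50 after a transcript start, were found for 4 of the 6 genes. They are shown because LXR binds DNA at a pair of AGGTCA half-sites spaced by 4 bases. Both strands were searched for that element (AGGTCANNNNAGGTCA), for the half-site alone (AGGTCA, which is part of the element), and for cores bound by the macrophage factors PU.1 (GAGGAAG), RUNX (TGTGGT) and AP-1 (TGANTCA). Capitals mark the matches.
Fcrl5, chr3:87435532-87435831, plus strand: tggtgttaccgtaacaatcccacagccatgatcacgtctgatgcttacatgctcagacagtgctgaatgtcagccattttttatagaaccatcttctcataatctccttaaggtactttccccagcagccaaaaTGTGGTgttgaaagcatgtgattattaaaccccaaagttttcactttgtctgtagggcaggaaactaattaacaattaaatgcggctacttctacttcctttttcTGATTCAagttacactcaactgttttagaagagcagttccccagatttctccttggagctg
Grap2, chr15:80623233-80623532, plus strand: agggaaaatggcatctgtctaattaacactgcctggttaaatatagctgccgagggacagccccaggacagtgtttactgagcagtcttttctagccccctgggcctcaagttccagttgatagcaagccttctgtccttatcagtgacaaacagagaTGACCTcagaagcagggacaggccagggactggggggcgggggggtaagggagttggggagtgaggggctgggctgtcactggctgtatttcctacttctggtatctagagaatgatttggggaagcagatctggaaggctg
Abcb1b, chr5:8797897-8798196, plus strand: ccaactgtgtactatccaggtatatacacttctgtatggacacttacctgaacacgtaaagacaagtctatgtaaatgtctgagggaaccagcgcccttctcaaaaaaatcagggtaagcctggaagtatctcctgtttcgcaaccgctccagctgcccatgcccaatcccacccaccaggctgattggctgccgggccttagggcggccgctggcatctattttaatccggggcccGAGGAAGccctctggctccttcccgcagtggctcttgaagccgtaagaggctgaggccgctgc
Adgrl3, chr5:81020321-81020620, plus strand: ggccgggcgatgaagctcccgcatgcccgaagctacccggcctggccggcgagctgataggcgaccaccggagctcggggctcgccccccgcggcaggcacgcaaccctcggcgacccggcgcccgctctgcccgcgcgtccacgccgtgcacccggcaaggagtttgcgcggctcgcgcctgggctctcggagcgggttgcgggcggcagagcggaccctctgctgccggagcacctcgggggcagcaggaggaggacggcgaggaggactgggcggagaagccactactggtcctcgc
The Fcrl5 window held a RUNX core starting 116 bases before the transcript start and an AP-1 match 11 bases before it. The Abcb1b window held a PU.1 core starting 13 bases before the start. The Grap2 window belongs to a start 50886 bases downstream of that of the transcript kept, and it held 1 half-site on the minus strand, 92 bases before the start. The Adgrl3 window shown held none of these letters, was 75.3% G and C (median of all windows 52.7%) and had 40 CpG pairs, against 3 in the Fcrl5 window. Of the other Adgrl3 windows, 1 held a PU.1 core and 1 a RUNX core. Of 32851 windows of this length, 16.26% held the half-site, 13.63% the PU.1 core, 16.76% the RUNX core, 7.81% the AP-1 match and 0.02% the spaced pair of half-sites, which was in no window of the 4 genes. With so small a share, and only the exact letters searched, nothing is read from that absence.

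Before the 6 genes, the labels of the LXR set were checked on the targeted and sorted genes. Nr1h3 was at 187, 451 and 298.5 CPM in Cre-positive replicates 1, 2 and 3 and at 247, 282 and 307 CPM in the Cre-negative ones. Nr1h2 was at 61.1, 82.5 and 64.5 against 51.1, 33.3 and 36.6 CPM. Neither was lower in the Cre-positive group. Counts over whole transcripts do not check a deletion of some exons, so the loss of LXR was not checked here. Timd4, which encodes the Tim4 protein that the sort excluded, was at 17.2, 304 and 94.3 CPM in the Cre-positive libraries and at 3.52, 5.71 and 16.4 CPM in the Cre-negative ones. In the population set, Tim4-positive NASH Kupffer cells had 263 and 164 CPM and Tim4-negative Kupffer-niche cells 5.48 and 12.6 CPM. Cre-positive replicate 2 thus went against its gate. Replicate 3 also lay far above those Kupffer-niche cells, within the range of Tim4-positive Kupffer cells at 30 weeks (79.9 to 287.6 CPM). The 15 Kupffer cell identity genes summed to 2273, 13780 and 7145 CPM in the Cre-positive libraries and to 5793, 7502 and 6546 CPM in the Cre-negative ones. Over all genes, replicate 1 of each group stood apart, with correlations to the other 5 libraries of 0.910 to 0.940 for the Cre-positive and 0.912 to 0.932 for the Cre-negative one, while the remaining 4 libraries correlated at 0.948 to 0.970. Replicate 1 of each group also had fewer counts (2.319e6 Cre-positive and 2.995e6 Cre-negative) than those 4 libraries (3.656e6 to 5.086e6). The part of depth in these correlations was not tested.

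Fcrl5 was at 29.1, 43.2 and 100.3 CPM in Cre-positive replicates 1, 2 and 3 and at 1.06, 0.476 and 0 CPM in the Cre-negative ones. The log2 difference (Cre-positive minus Cre-negative) was 6.85 ± 0.72 (SE). The 704 Cre-positive counts stood against 5 Cre-negative counts. In these bulk samples, fewer cells of a type and less RNA per cell cannot be told apart. The 8 B cell markers in the table summed to between 134.5 and 165.9 CPM in Cre-positive and between 122.3 and 155.7 CPM in Cre-negative libraries, most of it from Cd22. The 8 dendritic cell markers summed to between 86.5 and 141.2 CPM in Cre-positive and between 119.6 and 225.5 CPM in Cre-negative libraries. Among them Clec9a was at 77.1, 101.7 and 114 against 221.2, 107.5 and 123.8 CPM. Flt3 was at 4.10, 0.400 and 8.90 against 0, 0 and 0 CPM. The part of B cells or dendritic cells in the Fcrl5 difference was not tested.

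Grap2 was at 83.2, 65.05 and 177.7 CPM in the Cre-positive libraries and at 6.34, 4.995 and 6.73 CPM in the Cre-negative ones. The log2 difference was 4.18 ± 0.41. Replicate 3 was the highest Cre-positive library for both Fcrl5 and Grap2. The 11 T and NK cell markers summed to between 11.2 and 22.9 CPM in Cre-positive and to between 7.75 and 23.1 CPM in Cre-negative libraries, ranges that overlap. Among them Cd8a was at 7.79, 1.00 and 5.53 against 1.76, 7.61 and 0 CPM, Cd3e at 1.64, 1.201 and 2.41 against 0, 1.67 and 0.807 CPM, and Cd3d was at 0 in 4 of the 6 libraries. The part of T and NK cells in the Grap2 difference was not tested.

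Abcb1b was at 32.8, 14.6 and 29.6 CPM in the Cre-positive libraries and at 0.705, 2.85 and 1.88 CPM in the Cre-negative ones (log2 3.72 ± 0.50). Its near-identical neighbour Abcb1a, which encodes the other drug-pumping P-glycoprotein of the mouse, was at 18.4, 5.80 and 21.65 against 7.40, 5.47 and 5.65 CPM. Both were lowest in Cre-positive replicate 2. How reads that match both genes were counted is not given in the sources used here, so the split between them is uncertain.

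Lipg (NM_010720) lies on the minus strand of mm10 chromosome 18 from 74939322 to 74961263. It was at 9.02, 12.8 and 20.4 CPM in the Cre-positive libraries, while the Cre-negative libraries held a single count, at 0.352 CPM in replicate 1, with 0 in the other two. The 171 counts against 1 give a ratio of 159 after scaling (95% interval 28.1 to 6300, exact binomial, counting error only). Sinusoidal endothelial markers, which bear on a gene named for the endothelium, summed to between 290.2 and 670.1 CPM in Cre-positive and between 421.7 and 641.9 CPM in Cre-negative libraries. The median log2 difference of the 9 markers was -0.53. By group mean only Stab2 was higher in the Cre-positive libraries (214 ± 93.8 against 114 ± 71.9 CPM, SD). Lyve1 (2.65 ± 0.520 against 26.5 ± 22.8 CPM), Clec4g, Oit3, Ptprb, Kdr, Pecam1, Dnase1l3 and Egfl7 were lower. The part of endothelial cells in the Lipg difference was not tested.

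Adgrl3 went the other way, with 94.7, 73.7 and 80.3 CPM in the Cre-positive libraries and 259, 265 and 233 CPM in the Cre-negative ones. The log2 difference was -1.61 ± 0.19, and the libraries of each group lay close together. Slc7a2 was at 109.9, 49.4 and 81.3 CPM in the Cre-positive libraries and at 484, 218 and 333.5 CPM in the Cre-negative ones (log2 -2.11 ± 0.35). The 10 hepatocyte markers, of a cell type that also uses Slc7a2, summed to between 289 and 701.5 CPM in Cre-positive and between 239 and 618.2 CPM in Cre-negative libraries. In whole liver the same sum was at least 58520 CPM. The part of hepatocyte RNA in the Slc7a2 difference was not tested.

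**Figure D1:**
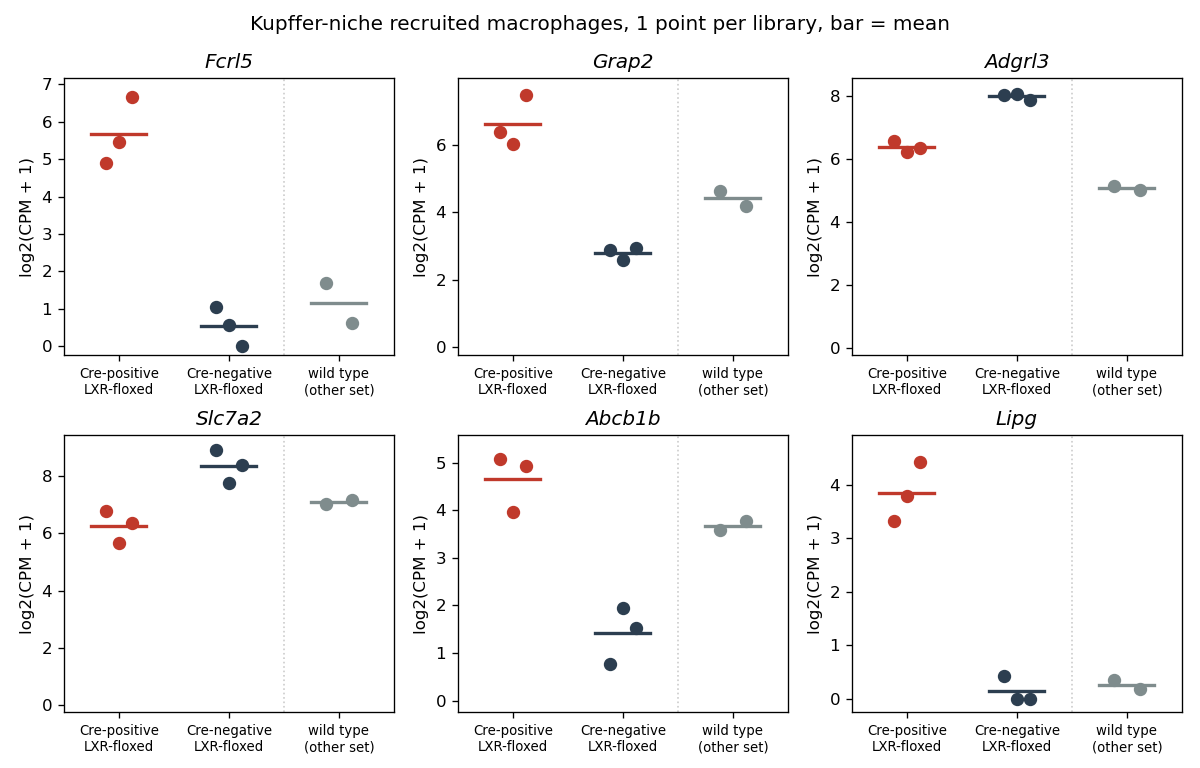
Level of each of the 6 genes as log2(CPM + 1) in each library of Kupffer-niche recruited macrophages: Cre-positive (red, n = 3) and Cre-negative (dark blue, n = 3) LXR-floxed mice, and wild type mice of the population set (grey, n = 2, normalised in another set). Bars are means. The red and dark blue points do not overlap for any gene, with Fcrl5, Grap2, Abcb1b and Lipg higher and Adgrl3 and Slc7a2 lower in the Cre-positive libraries. The genes were chosen on the values of these libraries.

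Over all genes of the LXR set, 24 of 11480 (0.209%) passed the threshold of the edgeR test, 20 higher (0.174%) and 4 lower (0.0348%) in the Cre-positive libraries. The 6 genes are among these 24 by choice, and nothing is read from their count. The 24 became 37, 81 and 3 without Cre-positive replicates 1, 2 and 3, and 0 without Cre-negative replicate 1 or 3, while DESeq2 called 232. Without Cre-positive replicate 2, the library with the most Timd4, the log2 differences were 7.02 for Fcrl5, 4.45 for Grap2, 4.02 for Abcb1b, 6.84 for Lipg, -1.52 for Adgrl3 and -1.85 for Slc7a2. Without Cre-positive replicate 1 they were 7.17, 4.34, 3.52, 7.05, -1.71 and -2.40 in the same order. With each of the 6 libraries left out in turn, the differences ran from 6.17 to 7.68 for Fcrl5, 3.62 to 4.45 for Grap2, 3.40 to 4.22 for Abcb1b, 6.24 to 8.80 for Lipg, -1.71 to -1.52 for Adgrl3 and -2.40 to -1.78 for Slc7a2. The lowest values of Fcrl5 and Grap2 were those without Cre-positive replicate 3.

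The known relatives and partners of the 6 genes were read in the same libraries as a description. The genes named here were chosen after their values were seen. On simulated data, the fit of this set found 18% of 2-fold and 72% of 4-fold changes. A gene that did not pass is thus not shown to be unchanged. Of 16 LXR target genes tested, 0 passed the threshold, and their median log2 difference was 0.65 (all genes -0.01), from -0.56 for Smpdl3a to 1.46 for Cd5l. The spread was wide for some, with Cd5l, also a Kupffer cell identity gene, at 1961 ± 1442 against 714 ± 54.6 CPM. Abcg1, a cholesterol efflux pump, was at 603 ± 85.0 against 344 ± 29.2 CPM (SD, n = 3 each), and Abca1, its partner in efflux, at 1810 ± 291 against 1802 ± 512 CPM. Among the 10 SLP-76 adaptor partners tested, 0 passed, and their median log2 difference was 0.12. Lat2, a LAT-like scaffold of myeloid and B cells, was at 28.3 ± 14.4 against 5.03 ± 1.31 CPM, while Syk was at 850 ± 119 against 1122 ± 94.3 CPM. Of the 8 ABC transporters and the 6 Fc receptor genes, 0 passed (median log2 difference 0.08 and 0.14). Abcb4, a phosphatidylcholine flippase of the P-glycoprotein family, was at 30.65 ± 8.64 against 11.96 ± 2.70 CPM, while Abcc5 was at 194.8 ± 5.50 against 265.3 ± 53.2 CPM. Fcgr2b, the inhibitory Fc receptor, was at 50.9 ± 12.5 against 17.8 ± 7.18 CPM, while Fcgr3 was at 289 ± 58.6 against 411.7 ± 32.25 CPM. The lists of latrophilins and ligands (6 tested), arginine genes (8) and lipases (9) also had 0 genes past the threshold.

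The 6 genes were then placed over all 16 groups, by group mean and with levels of different sets side by side and untested. Fcrl5 was highest in the Cre-positive cells (57.5 ± 37.7 CPM), next in Ly6C-low recruited macrophages (7.68 ± 7.01 CPM) and at 1.37 CPM or below in the 14 other groups. Those top 2 groups did not overlap each other or the third. Grap2 was at 108.7 ± 60.5 CPM in the Cre-positive cells and at 93.2 ± 15.4 CPM in Ly6C-low recruited macrophages, which overlapped. The next group, Ly6C-high recruited macrophages, was at 24.8 ± 2.55 CPM. Abcb1b was highest in Ly6C-low recruited macrophages (30.6 ± 1.80 CPM), followed by the Cre-positive cells (25.7 ± 9.70 CPM) and blood monocytes (17.9 ± 5.32 CPM), each overlapping the next. Lipg was at 14.1 ± 5.82 CPM in the Cre-positive cells, where it overlapped both groups of whole liver (13.1 ± 4.08 and 12.3 ± 4.37 CPM). In the other 13 groups it was at 1.13 CPM or below.

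Adgrl3 was highest in the Cre-negative cells (252 ± 17.3 CPM), then in the Cre-positive cells (82.9 ± 10.8 CPM) and then in wild type Kupffer-niche recruited macrophages (32.6 ± 1.82 CPM), none overlapping the next. The floxed alleles, the diet weeks and the set cannot be told apart in the gap between the Cre-negative and the wild type cells. Slc7a2 was highest in whole liver (840 ± 315 CPM without and 774 ± 274 CPM with DTR). Among sorted cells it was highest in the Cre-negative cells (345 ± 133 CPM), which overlapped Kupffer cells after 20 weeks of diet (232 ± 37.5 CPM). It was lowest in blood monocytes (0.970 ± 0.701 CPM). Against wild type Kupffer-niche recruited macrophages, the Cre-negative cells were lower in Grap2 (6.02 against 20.8 CPM) and Abcb1b (1.81 against 11.8 CPM) and higher in Slc7a2 (345 against 136 CPM), again between sets.

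**Figure D2:**
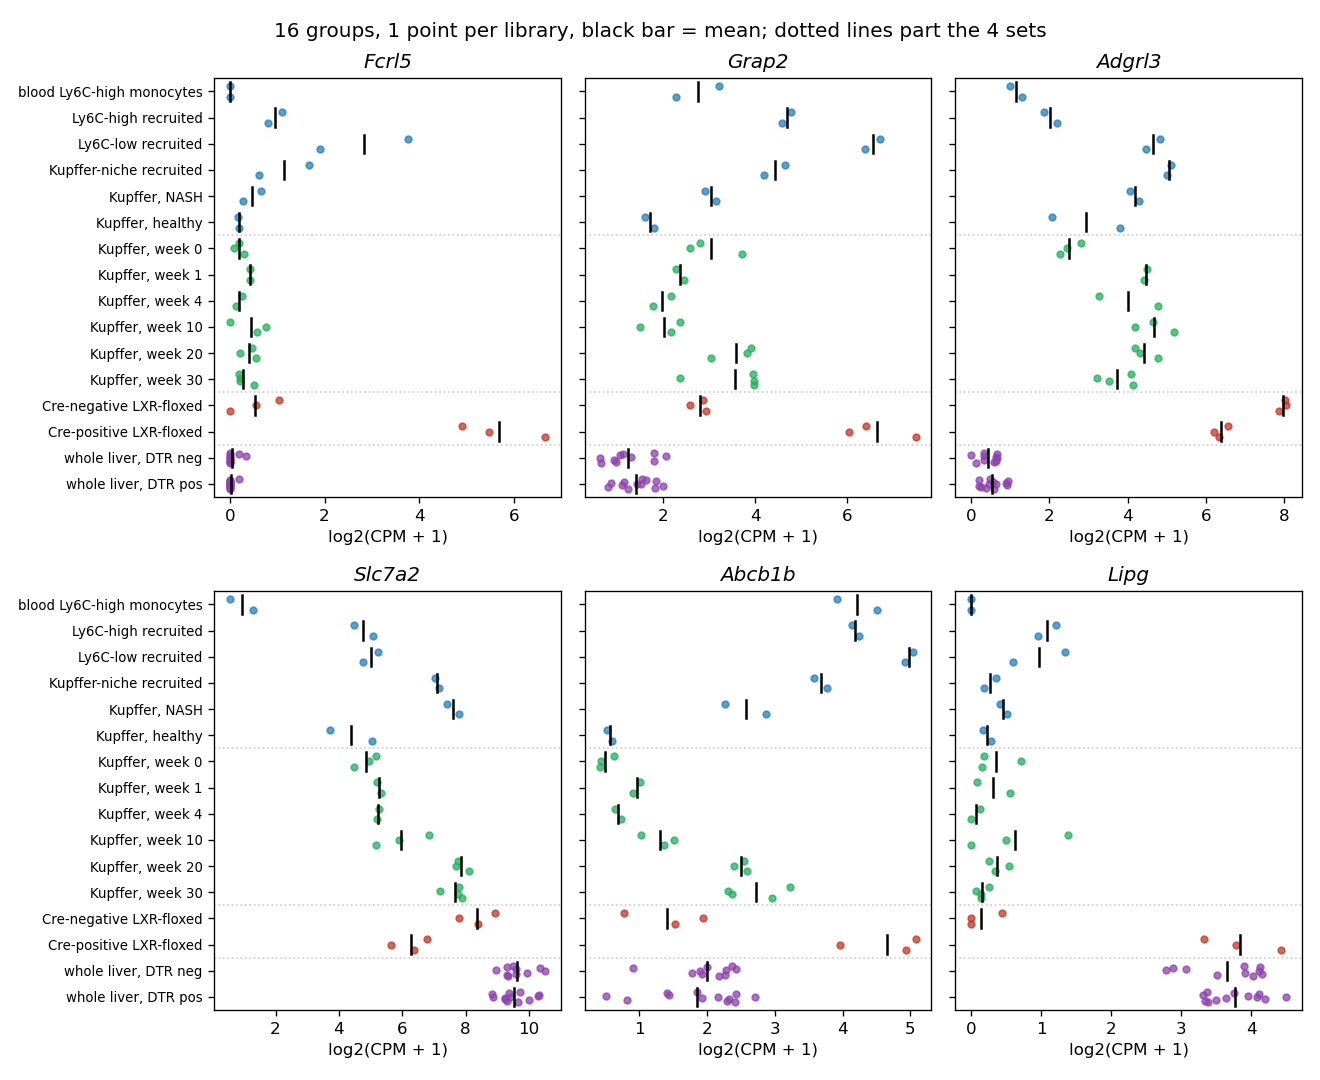
Level of each of the 6 genes as log2(CPM + 1) in the 57 libraries of 16 groups, with 1 point per library and a black bar at the group mean. Blue is the population set, green the time course, red the LXR set and purple whole liver, each normalised on its own. Fcrl5 and Grap2 are high in Cre-positive LXR-floxed and in Ly6C-low recruited cells, and Slc7a2 and Lipg are also high in whole liver.

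The first comparison that the choice did not use set NASH diet Kupffer cells against healthy ones. Grap2, Slc7a2 and Abcb1b, 3 of the 6, rose in NASH, where 20.7% of all 14407 genes were called, 11.2% higher and 9.56% lower. The labels number the replicates but do not say that they came from separate animals, so these p-values measure only the spread between the samples, which may be technical. Abcb1b was at 3.83 and 6.33 CPM in the NASH libraries and at 0.442 and 0.522 CPM in the healthy ones, a rise of 3.39 ± 0.38 (log2 ± SE, n = 2 each, edgeR adjusted p = 0.000168). Slc7a2 was at 170.1 and 221.5 against 12.1 and 32.1 CPM (log2 3.16 ± 0.41, adjusted p = 0.000515). Grap2 was at 6.60 and 7.89 against 2.08 and 2.54 CPM (log2 1.66 ± 0.35, adjusted p = 0.00822). For Grap2, 3 of 10 alternatives lost the call, among them those without healthy replicate 1 or NASH replicate 2. With a replicate left out, its difference ran from 1.49 to 1.80. Markers of other cells moved in this comparison. T and NK cell markers rose in 9 and fell in 1 of 11, with sums of 39.1 to 60.4 against 23.3 to 27.9 CPM. Cholangiocyte markers rose in 3 of 5, with sums of 70.9 to 220.4 against 1.39 to 1.42 CPM. Sinusoidal endothelial markers fell in 7 of 9 (813 to 833 against 1281 to 1303 CPM), Kupffer cell identity genes in 7 of 15 (27720 to 31490 against 38710 to 47430 CPM) and hepatocyte markers in 2 of 10 (136 to 415 against 644 to 972 CPM). The part of these cells in the changes of the 6 genes and their relatives was not tested.

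Adgrl3 was at 15.7 and 18.7 CPM in NASH and at 3.22 and 13.1 CPM in healthy Kupffer cells, and did not pass the test (log2 1.098 ± 0.45, adjusted p = 0.108). Of 10 alternatives, 2 changed its side of the threshold. With a replicate left out, the difference ran from 0.40 to 2.41, the latter without healthy replicate 2. Fcrl5 was at 0.571 and 0.213 against 0.126 and 0.149 CPM (adjusted p = 0.484), and Lipg at 0.326 and 0.427 against 0.126 and 0.224 CPM (adjusted p = 0.415). Both rest on 10 counts or fewer in each group.

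Several relatives of the 6 genes were called in the same comparison. Of 12 SLP-76 adaptor partners 4 rose and 0 fell (median log2 0.04, all genes -0.0004), among them Lat2, from 1.42 ± 0.313 to 29.2 ± 5.56 CPM, and Map4k1, a kinase that binds GADS, from 5.10 ± 2.49 to 19.5 ± 7.41 CPM. Of 9 Fc receptor genes 5 rose and 1 fell (median 0.77). Fcrls, an Fc receptor-like gene, rose from 0.126 ± 0.179 to 7.69 ± 3.61 CPM, while Fcrl1, a B cell relative of Fcrl5, fell from 46.7 ± 6.62 to 29.5 ± 0.701 CPM. Of 8 latrophilins and ligands 3 rose and 1 fell (median 0.89), with Flrt2, a ligand of latrophilins, from 0.396 ± 0.243 to 10.4 ± 2.18 CPM. Of 11 arginine genes 4 rose and 1 fell (median 0.35). Nos2, which makes nitric oxide from arginine, rose from 0.0689 ± 0.00813 to 1.62 ± 0.219 CPM, and Arg2, the mitochondrial arginase, fell from 49.5 ± 4.88 to 19.2 ± 4.43 CPM. Of 8 ABC transporters 0 rose and 2 fell (median -0.30), the opposite direction to Abcb1b, and Abcb1a was not among them. Of 10 lipase genes 1 rose and 1 fell (median -0.03), and the riser was Lpl, lipoprotein lipase, from 1099 ± 360 to 3706 ± 436 CPM. Of 19 LXR targets 8 rose and 1 fell (median 0.38).

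The next comparison set Kupffer-niche recruited macrophages against NASH diet Kupffer cells of the same set. Of the 6 genes, edgeR's test called 0, where 0.534% of all genes were called, 0.333% higher and 0.201% lower. At an unadjusted p under 0.05 it found 2 of the 6 and 1311 of all 14407 genes, and DESeq2 called 2 of the 6 and 269 of all genes. Grap2 was at 24.1 and 17.4 CPM in the recruited cells and at 6.60 and 7.89 CPM in the Kupffer cells, with a log2 difference of 1.52 ± 0.29 (edgeR adjusted p = 0.0519, n = 2 each). Abcb1b was at 10.98 and 12.7 against 3.83 and 6.33 CPM (log2 1.21 ± 0.26, adjusted p = 0.0776). Grap2 and Abcb1b passed under DESeq2 (adjusted p = 0.0001 and 0.00751) and without the filter on low counts (adjusted p = 0.000478 and 0.00668). Adgrl3 was at 33.9 and 31.3 against 15.7 and 18.7 CPM (adjusted p = 0.566), and Slc7a2 at 129.3 and 142.7 against 170.1 and 221.5 CPM (adjusted p = 0.776). Fcrl5 was at 2.21 and 0.535 against 0.571 and 0.213 CPM, which overlapped (adjusted p = 0.639). Lipg was at 0.276 and 0.134 against 0.326 and 0.427 CPM (adjusted p = 0.867). Of the lists of relatives, 1 gene was called, the latrophilin ligand gene Tenm4, which fell from 19.9 ± 4.04 CPM in Kupffer cells to 3.58 ± 0.230 CPM in recruited cells.

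Ly6C-low recruited macrophages, sorted as CD11b-high, were compared with Kupffer-niche recruited macrophages. Here 5 of the 6 genes were called, where 33.3% of all genes were, 15.3% higher and 18.1% lower. Fcrl5, Grap2, Abcb1b and Lipg were higher in the Ly6C-low cells, and Slc7a2 was lower. Grap2 was at 104.1 and 82.25 CPM in Ly6C-low cells and at 24.1 and 17.4 CPM in Kupffer-niche cells (log2 2.16 ± 0.27, edgeR adjusted p = 0.000164, n = 2 each). Abcb1b was at 31.9 and 29.3 against 10.98 and 12.7 CPM (log2 1.37 ± 0.24, adjusted p = 0.00144). Slc7a2 was at 36.7 and 26.3 against 129.3 and 142.7 CPM (log2 -2.11 ± 0.39, adjusted p = 0.00192).

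Fcrl5 was at 12.6 and 2.73 CPM in Ly6C-low cells and at 2.21 and 0.535 CPM in Kupffer-niche cells (log2 2.47 ± 0.76, adjusted p = 0.0308). Lipg was at 1.54 and 0.508 against 0.276 and 0.134 CPM (log2 2.29 ± 0.73, adjusted p = 0.0341), from 46 against 7 counts. Both were uneven between replicates. Without Ly6C-low replicate 1 the differences were 0.96 for Fcrl5 (adjusted p = 0.412) and 1.24 for Lipg (adjusted p = 0.331), and without Kupffer-niche replicate 2 they were 1.81 (adjusted p = 0.152) and 1.90 (adjusted p = 0.188). The call of Lipg was also lost without Kupffer-niche replicate 1 (log2 2.93, adjusted p = 0.101) and under DESeq2 (adjusted p = 0.0906), and that of Fcrl5 with the pair of groups fitted alone (adjusted p = 0.0673). Adgrl3 was at 27.55 and 21.2 against 33.9 and 31.3 CPM and did not pass (log2 -0.42 ± 0.42, adjusted p = 0.484).

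Markers of other cells moved in this comparison too. Dendritic cell markers were higher in the Ly6C-low cells for 6 of 8 genes and lower for 1, with sums of 391.4 to 414.1 against 54.78 to 58.45 CPM. B cell markers were higher for 2 of 8 and T and NK markers for 1 of 11, with T and NK sums of 107.8 to 113.5 against 72.3 to 80.9 CPM. B cell sums overlapped (168.0 to 229.3 against 191.2 to 196.0 CPM). Among 9 sinusoidal endothelial markers 6 were higher and 1 was lower, with sums of 627 to 630.2 against 517 to 571 CPM. Of the 15 Kupffer cell identity genes, 12 were lower, with sums of 649 to 986 against 16060 to 18500 CPM. Their part in the differences of the 6 genes was not tested.

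Among relatives in that comparison, 1 of 9 Fc receptor genes was higher and 5 were lower (median log2 -0.78, all genes -0.01). The 1 higher gene was Fcgr2b, at 340 ± 43.7 against 78.0 ± 9.09 CPM. Fcgr3, an activating Fc receptor, was at 219.5 ± 0.549 against 490.2 ± 9.93 CPM. SLP-76 adaptor partners were higher in 5 and lower in 3 of 12 (median 0.21), with Map4k1 at 94.7 ± 11.1 against 27.4 ± 2.22 CPM. Of 11 arginine genes 2 were higher and 3 lower (median -0.48). Slc3a2, the heavy chain that several amino acid carriers need, was at 205 ± 15.1 against 488 ± 8.99 CPM, and Arg2 at 1.07 ± 0.160 against 11.48 ± 0.0660 CPM. ABC transporters were higher in 1 and lower in 3 of 8 (median -0.11), and Abcb4 was at 11.2 ± 0.369 against 30.6 ± 1.06 CPM. Of 10 lipase genes 2 were higher and 1 lower (median -0.15), and latrophilins and ligands higher in 3 of 8 (median 0.52). LXR targets were lower in 11 and higher in 0 of 19 (median -0.68), with Apoe at 5119 ± 272 against 33990 ± 3033 CPM.

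Blood Ly6C-high monocytes, titled as NASH, served as the reference for both Kupffer-niche and Ly6C-high recruited cells, which thus share these 2 reference libraries. Of the 6 genes, 5 were called, all higher, in Kupffer-niche cells, where 60.4% of all genes were called, 34.0% higher and 26.5% lower. In Ly6C-high cells 4 were called, all higher (48.6% of all genes called, 27.3% higher and 21.3% lower). Slc7a2 was at 0.474 and 1.47 CPM in blood and rose by 7.29 ± 0.57 on the log2 scale to 129.3 and 142.7 CPM in Kupffer-niche cells (edgeR adjusted p = 9.62e-07, n = 2 each) and by 4.95 ± 0.57 to 21.1 and 32.9 CPM in Ly6C-high cells (adjusted p = 4.72e-05). Adgrl3 was at 0.996 and 1.47 CPM in blood and rose by 4.77 ± 0.55 in Kupffer-niche cells (adjusted p = 2.24e-05). In Ly6C-high cells it was at 2.66 and 3.56 CPM and did not pass (log2 1.38 ± 0.59, adjusted p = 0.0728). It passed there under DESeq2 (adjusted p = 0.0125), without the filter (adjusted p = 0.0126) and with the pair of groups alone (adjusted p = 0.0242). Whether its 2 differences from blood differ was not tested.

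Grap2 was at 8.34 and 3.91 CPM in blood and rose by 1.72 ± 0.29 in Kupffer-niche cells (adjusted p = 0.000407) and by 1.97 ± 0.29 in Ly6C-high cells, to 26.6 and 23.0 CPM (adjusted p = 0.00027). Fcrl5 had 0 counts in both blood libraries, so its means were set against a floor of 3 counts over the blood group. Its mean was 15.3-fold this floor in Kupffer-niche cells (48 counts, adjusted p = 0.0047). In Ly6C-high cells it was 10.5-fold the floor (31 counts, adjusted p = 0.0125). These ratios leave out the error of the recruited cells, so they are not strict lower bounds. Lipg also had 0 counts in blood, and its mean was 2.28-fold the same floor in Kupffer-niche cells (7 counts, adjusted p = 0.0268) and 12.6-fold in Ly6C-high cells (37 counts, adjusted p = 0.00125). The Kupffer-niche call of Lipg was lost without either blood library (adjusted p = 0.116 and 0.0659) or without Kupffer-niche replicate 1 (adjusted p = 0.118), and the Ly6C-high call of Fcrl5 without blood replicate 1 (adjusted p = 0.0778). With limma on log2(TPM + 1), which compresses low values, both Fcrl5 calls (adjusted p = 0.183 and 0.244) and the Kupffer-niche call of Lipg (adjusted p = 0.574) were lost.

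Abcb1b did not pass in either comparison with blood. It was at 14.1 and 21.65 CPM in blood monocytes, at 10.98 and 12.7 CPM in Kupffer-niche cells (log2 -0.59 ± 0.24, adjusted p = 0.0558) and at 16.6 and 17.9 CPM in Ly6C-high cells (log2 -0.04 ± 0.24, adjusted p = 0.898). It passed as lower in Kupffer-niche cells without blood replicate 1 (log2 -0.87, adjusted p = 0.0162), without the filter (adjusted p = 0.046) and with limma on TPM (adjusted p = 0.0163). Hepatocyte, stellate cell and endothelial markers also rose against blood, with all 10, 10 and 9 genes called in both comparisons. So did B cell markers (8 of 8 in both) and T and NK cell markers (10 and 11 of 11). Hepatocyte markers summed to between 0.853 and 1.14 CPM in blood, 94.3 and 385 CPM in Kupffer-niche cells and 1414 and 3783 CPM in Ly6C-high cells. Slc7a2 and Lipg are also high in whole liver, and the part of any of these cell types in the rise of the 6 genes was not tested.

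**Figure D3:**
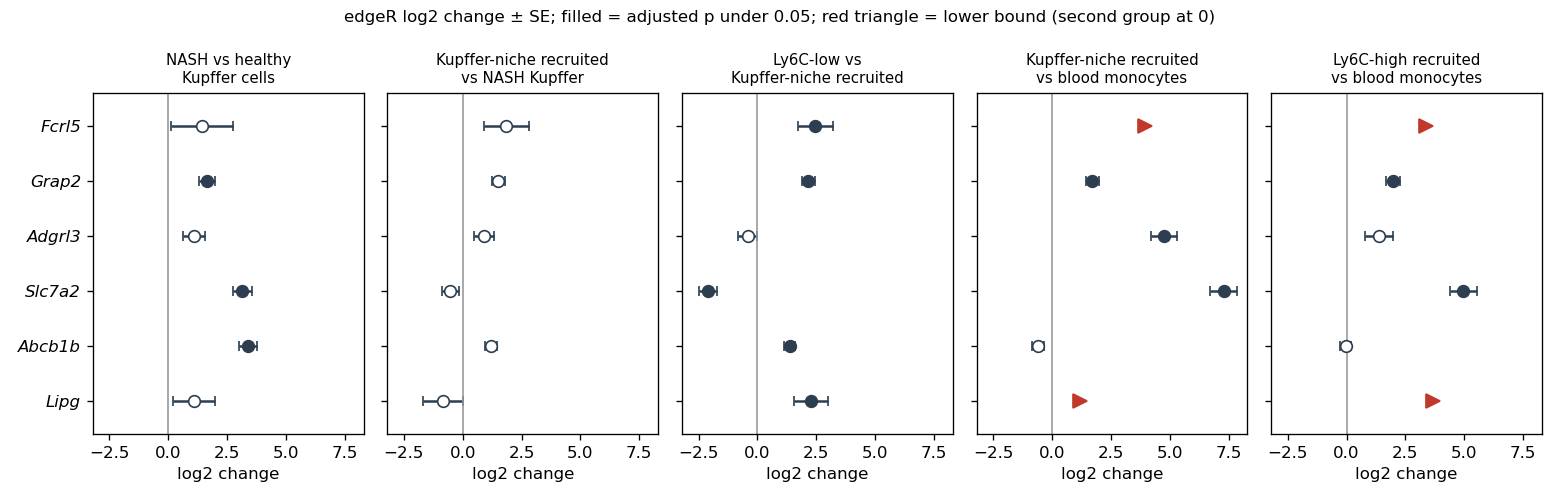
Log2 change of each of the 6 genes in the 5 comparisons of the population set (points, with SE bars, n = 2 libraries a group), filled where the edgeR adjusted p was under 0.05. Red triangles are lower bounds for Fcrl5 and Lipg, which had 0 counts in blood monocytes. In the third panel Fcrl5, Grap2, Abcb1b and Lipg lie to the right of 0 and Slc7a2 to the left, and in the second panel no point is filled.

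Along the diet, Kupffer cells of the time course were tested for any difference between the 6 times. Of the 5 genes tested, Grap2 (edgeR adjusted p = 0.00373), Adgrl3 (adjusted p = 0.00112), Slc7a2 (adjusted p = 2.33e-06) and Abcb1b (adjusted p = 2.58e-06) were called, where 58.3% of all 14552 genes were. Lipg was not (adjusted p = 0.257), and Fcrl5 was left out by the filter on low counts, with 0.690 CPM or less in each of the 17 libraries.

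Abcb1b was at 0.542, 0.351 and 0.347 CPM at week 0 and at 4.82, 4.27 and 5.00 CPM at 20 weeks. It rose by 3.47 ± 0.39 on the log2 scale (adjusted p = 1.09e-05, n = 3 each). Of all genes 34.7% were called at 20 weeks, 18.2% higher and 16.6% lower. At 30 weeks, where 30.5% were called, 15.5% higher and 15.0% lower, Abcb1b was at 8.39, 3.98, 4.18 and 6.77 CPM (log2 3.78 ± 0.39, adjusted p = 3.58e-06, n = 4). In between, its means were 0.954 CPM at week 1, 0.611 at week 4 and 1.49 at week 10. Each library at 20 or 30 weeks was above every earlier one. Slc7a2 was at 34.9, 29.7 and 21.1 CPM at week 0, and at 214, 207 and 275 CPM at 20 weeks (log2 3.02 ± 0.33, adjusted p = 7.09e-06). At 30 weeks it was at 219, 144.6, 214.6 and 236 CPM (log2 2.83 ± 0.32, adjusted p = 8.93e-06). At 1 and 4 weeks it was still between 35.4 and 39.3 CPM, and at 10 weeks the libraries spread from 34.7 to 114.0 CPM.

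For Adgrl3, each library on the diet was above every week 0 library. It was at 5.96, 4.45 and 3.87 CPM at week 0 and at 21.8 and 20.6 CPM at week 1, and reached its highest mean at week 10 (25.7 ± 9.06 CPM). At 20 weeks it was at 17.1, 18.9 and 26.6 CPM (log2 2.12 ± 0.38, adjusted p = 0.00053) and at 30 weeks at 15.9, 8.36, 10.6 and 16.5 CPM (log2 1.43 ± 0.36, adjusted p = 0.00655). The 30 week call was lost with limma on log2(TPM + 1) (adjusted p = 0.0984). Grap2 had its lowest means at weeks 4 and 10 (3.00 ± 0.756 and 3.19 ± 1.198 CPM) and its highest at 30 weeks (12.1 ± 5.27 CPM), with 7.73 ± 3.90 CPM at week 0. Grap2 did not pass at 20 weeks (log2 0.58 ± 0.44, adjusted p = 0.322) or 30 weeks (log2 0.65 ± 0.42, adjusted p = 0.259) against week 0. Lipg did not pass at either time (log2 0.08 ± 1.08, adjusted p = 0.963, and -1.29 ± 1.105, adjusted p = 0.407), from 9 to 18 counts in each group.

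**Figure D4:**
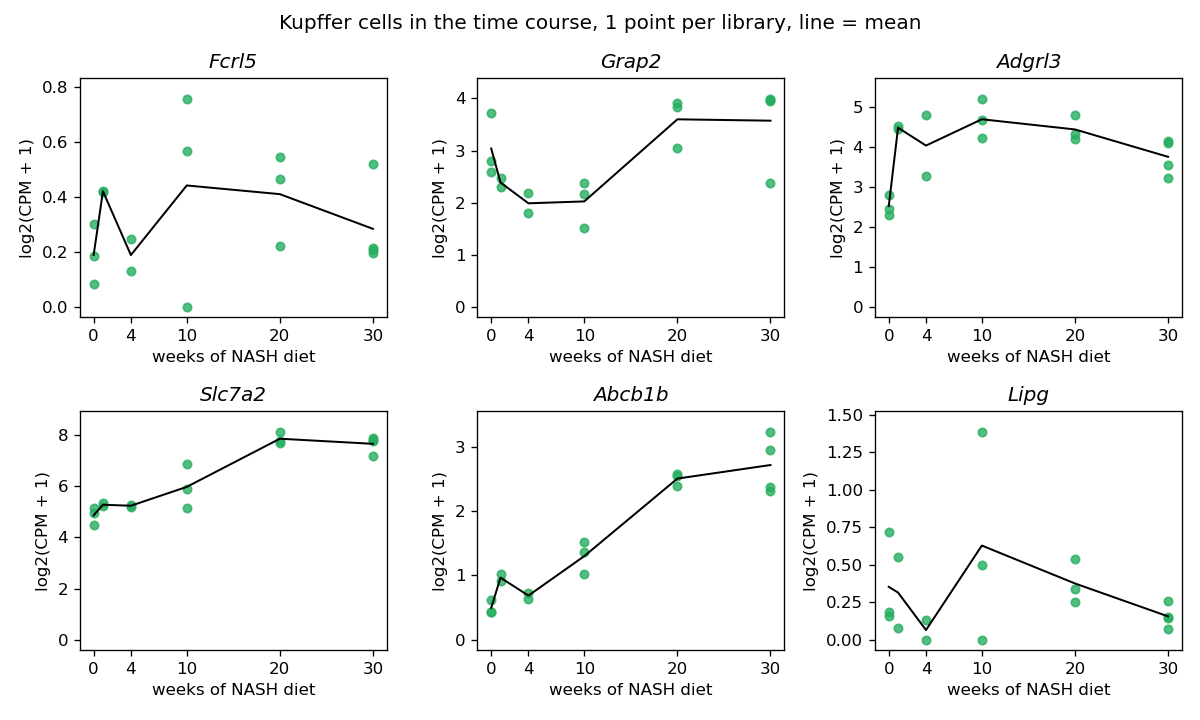
Level of each of the 6 genes as log2(CPM + 1) in Kupffer cells by weeks of NASH diet, with 1 point per library (17 libraries) and a line through the means. The vertical scales differ between panels. Abcb1b and Slc7a2 are high at 20 and 30 weeks, Adgrl3 is above its week 0 level from week 1, and Fcrl5 and Lipg are near 0 throughout.

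Among the relatives, the neighbour Abcb1a rose at 20 weeks from 1.62 ± 0.563 to 4.71 ± 0.676 CPM, and 4 of 8 ABC transporters rose in all with 0 falling (median log2 0.57, all genes -0.0007). Of 11 arginine genes 7 rose and 0 fell at 20 weeks (median 0.70), with Arg1, the cytosolic arginase, from 2.70 ± 1.55 to 7.93 ± 1.95 CPM. At 30 weeks 3 rose and 0 fell (median 0.72, all genes -0.002), and Arg1 was at 13.6 ± 3.27 CPM. Of the 8 latrophilins and ligands 2 rose and 2 fell at both times (median -0.49 and -0.97). Tenm4 rose from 1.03 ± 0.281 to 22.2 ± 4.87 CPM at 20 weeks, while Adgrl4 and Adgrl2, receptors of the latrophilin family, fell there. Of 12 SLP-76 adaptor partners 5 rose at 20 weeks (median 0.40), among them Lat2, from 3.55 ± 1.82 to 22.9 ± 12.5 CPM. Lipase genes rose in 5 of 11 at 20 weeks (median 0.55), with Angptl4, an inhibitor of lipoprotein lipase, from 3.02 ± 0.925 to 21.7 ± 13.95 CPM. Fc receptor genes rose in 2 and fell in 2 of 9 (median 0.16). LXR targets rose in 13 and fell in 1 of 19 (median 1.15), with Abca1 from 600.5 ± 77.3 to 1528 ± 214 CPM. Markers of other cells moved at 20 weeks as well. Hepatocyte markers rose in 7 of 10, with sums of 152 to 839.5 CPM against 46.4 to 138.6 CPM at week 0, and stellate cell markers in 5 of 10 (261 to 592 against 203 to 288 CPM). Of the 15 Kupffer cell identity genes 11 fell (20980 to 28160 against 31380 to 38450 CPM), and of 9 endothelial markers 6 fell (922 to 1664 against 1162 to 2279 CPM). Cholangiocyte markers rose in 1 of 5. At week 1 the hepatocyte sums were 3217 to 4834 CPM. The part of these cells in the changes of the 6 genes and their relatives was not tested.

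In whole liver, Clec4f-cre DTR pos and DTR neg mice were compared. Of the 4 genes tested 0 were called, as were 0% of all 12682 genes by edgeR and by DESeq2. At an unadjusted edgeR p under 0.05 there were 477 genes, with 0 of the 4 among them. Slc7a2 ran from 457 to 1273 CPM with a median of 668 CPM in DTR pos livers (n = 12), and from 501 to 1456 CPM with a median of 743 CPM in DTR neg livers (n = 10). Lipg ran from 8.91 to 21.6 CPM (median 11.97) against 5.89 to 16.8 CPM (median 13.97). Abcb1b had medians of 3.15 and 3.25 CPM and Grap2 of 1.81 and 1.15 CPM. The groups overlapped for each gene, and edgeR's adjusted p was 0.9997 for all 4. Fcrl5 had 1 count in all DTR pos and 3 in all DTR neg libraries, and Adgrl3 was at 0.918 CPM or below in each liver. Neither passed the filter on low counts.

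The genes most like each of the 6 were sought over 12 groups of sorted wild type cells (the population set and the time course), by Pearson correlation of group means of log2(CPM + 1), as a description over groups that share sets and depth. Of 11783 genes, Ltb (0.982), Il21r (0.972) and Acap1 (0.966) were most like Grap2, and Ank (0.987), Rap2a (0.985) and Sh2d1b1 (0.984) most like Abcb1b. For Fcrl5 they were H2-DMb2 (0.966), BC051537 (0.964) and Aldh1a2 (0.963), and for Slc7a2 Arhgap10 (0.964), Vat1 (0.963) and Pdgfa (0.961). For Adgrl3 they were Acsl3 (0.910), Hmgn1 (0.893) and Plxdc2 (0.889). For Lipg, Chst7 (0.899) rests on group means of Lipg of at most 1.13 CPM. Among the 6 genes themselves, Fcrl5 with Grap2 (0.863), Grap2 with Abcb1b (0.811) and Adgrl3 with Slc7a2 (0.737) were the 3 highest pairs.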

How the data were processed

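Raw read counts per transcript were deposited by the authors. Per the file headers they were made with HOMER over the exons of mm10 RefSeq transcripts, and the submitters' processing notes also name STAR and DESeq2, with no version. Strand use and the treatment of reads that match several places are not given in the sources used here. The table held 40458 transcripts of 24941 genes, and for genes with several the transcript with the highest total was kept. TPM values, also deposited by the authors, served 1 alternative (limma on log2(TPM + 1)).

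Each of the 4 sets was fitted on its own with edgeR 4.0.16 (R 4.3.3): genes kept by filterByExpr (minimum count 10, minimum total 15), TMM factors, and the quasi-likelihood test with p-values adjusted by Benjamini-Hochberg across the genes of the set, called under 0.05. Population groups shared 1 estimate of the spread. SEs are the log2 change over the square root of F and approximate. The fit was tested on simulated data with 200 changed genes. It found 18% of 2-fold changes in the LXR set, 48% in NASH against healthy Kupffer cells, 62% at 30 weeks and 89% in whole liver. Alternatives were DESeq2 1.42.0, RLE size factors, no filter, limma 3.58.1, a replicate block, leaving out each replicate (not in whole liver) and fitting pairs of groups alone.

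Replicate numbers did not mark animals or batches in the labels and were not used as pairs. No 2 replicates agreed within sampling noise (chi-square over degrees of freedom 5.03 to 79.9 in 140 pairs). The 6 genes and all lists were chosen with earlier results of these data known. Besides the 6 genes, genes called in a comparison were named from 7 lists of relatives, at most 4 a list by smallest adjusted p, with the targeted and sorted genes and up to 3 genes most like each. Some results are not reported here. Depth limits values under about 1 CPM, and intervals and floors cover counting error only.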

Additional observations from a re-analysis of the deposited data

Results flagged for a closer look

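Among the 12 gene and group combinations that could be checked for a single library far from the rest (groups of 4 to 10 libraries, whole liver without DTR included), 2 were found, both in Kupffer cells after 30 weeks of diet, and chance gives about 1 in 20. Grap2 was at 4.18 CPM in replicate 2, while the other 3 libraries lay between 14.5 and 14.9 CPM, so the gap was 0.967 of the group's range, above the 95% critical value of Dixon's test. Without that library the 30 week difference of Grap2 from week 0 was 0.94 on the log2 scale (adjusted p = 0.059). Fcrl5 was at 0.433 CPM in replicate 4 and between 0.145 and 0.161 CPM in the others, a gap of 0.946 of the range, from 17 counts in all 4 libraries together.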

How the results depend on the processing

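The 6 genes gave 55 results outside and inside the LXR set, recomputed under 606 alternatives. Of these, 558 stayed the same, 18 lost a call, 15 gained one, 5 moved without a test and 10 changed sign. Same meant an unchanged direction and side of the threshold, or the side alone for the test of any week. In the LXR set, which had no test, it meant an unchanged direction and a shift under the larger group SD. The sign changes were in results near 0. Abcb1b in Ly6C-high cells against blood (-0.04) was at 0.0392 with DESeq2, 0.0405 with RLE size factors, 0.0188 with limma, 0.058 with the pair of groups alone and between -0.33 and 0.277 with a replicate left out (0.0013 without Ly6C-high replicate 1, 0.277 without blood replicate 2). Lipg at 20 weeks (0.08) was at -0.0176 with limma and between -0.36 and 0.30 with a replicate left out (-0.29 without week 0 replicate 1 or 3, -0.36 without week 20 replicate 2). The cause was not tested.

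Genes called in the LXR set (24) numbered 232 with DESeq2, 273 without the filter, 2 with limma, 112 with the replicate block and 0 to 81 with a replicate left out (37, 81 and 3 without Cre-positive replicates 1, 2 and 3, and 0 without Cre-negative replicate 1 or 3). With limma on log2(TPM + 1), the differences were 4.91 for Fcrl5, 2.75 for Abcb1b and 2.88 for Lipg, and Lipg was at 8.80 and 6.24 without Cre-negative replicates 1 and 2. Those called in Kupffer-niche cells against NASH Kupffer cells (77) numbered 269 with DESeq2, 257 without the filter, 152 with the block, 48 with the pair alone and 10 to 33 with a replicate left out. The 2988 of NASH against healthy Kupffer cells fell to between 846 and 2031 with a replicate left out (846 without NASH replicate 2, 1685 without NASH replicate 1, 1523 without healthy replicate 2). The 4804 of Ly6C-low against Kupffer-niche cells fell to between 2851 (without Kupffer-niche replicate 1) and 3607.

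Same-numbered replicates correlated at between -0.117 and 0.589 in the population set (2 pairs a comparison) and between -0.028 and 0.249 in the LXR set, where 1 of 3 pairs was best with its own number. With the replicate number as a block, Grap2 and Abcb1b passed in Kupffer-niche against NASH Kupffer cells (adjusted p = 0.0186 and 0.0302) and Abcb1b in Kupffer-niche cells against blood (adjusted p = 0.0314), and no other call on the 6 genes changed. Crossing the 2 blood numbers, chosen after seeing the data, gave 7326 called genes in Ly6C-high cells against blood, against 7000 without a block. Low counts limit Fcrl5 and Lipg outside the LXR set and the livers.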
